A study of Mus musculus with 10 samples.

Results

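The basal and wound-induced keratins are a group of 9 genes, Krt5, Krt14, Krt15, Krt6a, Krt6b, Krt16, Krt17, Krt8 and Krt18, taken by symbol from a table of 37991 mouse gene identifiers. All 9 were in the table, and 8 had a mean of at least 1 FPKM (fragments per kilobase of transcript, scaled to the mapped fragments of the library) over the 10 libraries. The libraries came from primary skin keratinocytes of mice on postnatal day 4 to 5, carrying the Bcl10tm1Mak allele. Knockout cultures were Bcl10-/- and control cultures were Bcl10+/- from littermates, so the controls also carry 1 disrupted allele. The cultures were kept on a collagen coating in low-calcium medium without serum (0.05 mM CaCl2). They were left untreated or exposed for 5 hours to mouse IL-17A at 200 ng/mL. There were 2 knockout and 3 heterozygous libraries per condition. Libraries that share a genotype and a replicate number are called a culture below (KO1, KO2, HET1, HET2 and HET3), although the labels do not say that each pair came from 1 mouse. The p-values therefore measure the spread between these samples, some of which may be technical.

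Keratins form the intermediate filaments of epithelial cells, and each filament is built from obligate pairs of a type I and a type II chain. Krt5 (type II) and Krt14 (type I) pair in basal keratinocytes of the epidermis, where Krt15 is a further type I chain. Krt6a, Krt6b (type II), Krt16 and Krt17 (type I) are low in resting interfollicular epidermis and are known to be induced at wound edges, in psoriasis and in culture. Krt8 (type II) and Krt18 (type I) pair in simple epithelia. IL-17A is a T cell cytokine that acts on keratinocytes, and BCL10 is an adaptor that links CARD proteins to MALT1 and NF-kB.

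Facts of the whole series touch several results. Bcl10 was listed at 0.969 FPKM in the unstimulated KO1 library and at 16.4, 17.0 and 16.6 FPKM in the other knockout libraries. It was 18.0 and 16.3 FPKM in the libraries labelled HET1, and 59.5 to 72.3 FPKM in those of HET2 and HET3. The culture labelled HET1 is thus at the level of the knockout cultures and goes against its label, and HET1 below means the culture so labelled. The sample titles also carry a library number. The 6 libraries of KO1, KO2 and HET1 have numbers 1 to 14 and the 4 libraries of HET2 and HET3 have numbers 33 to 38, and the labels do not say what the number marks. The unstimulated KO1 library stands apart, with 12.6% of its summed FPKM in its top 10 genes. Depth, estimated from the steps between low FPKM values, was 15.9 M to 50.8 M fragments per library. At that depth 3 fragments in a 1 kb transcript correspond to 0.0591 to 0.188 FPKM. Keratinocyte markers were present in every library. Immune markers summed to at most 0.0367 FPKM, with Ptprc, Cd207, Cd3e and Lyz2 at 0. The 8 dermal fibroblast markers summed to 74.3 to 75.0 FPKM in KO2 and to at most 17.9 in the other cultures. The 6 melanocyte markers summed to 169 to 197 FPKM in libraries 1 to 14 and to 316 to 407 in libraries 33 to 38.

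The genes lie in the 2 keratin clusters of the mouse genome (GRCm38). Krt14 (chr11:100203162-100207548), Krt15 (chr11:100131758-100135928), Krt16 (chr11:100246091-100248902) and Krt17 (chr11:100256217-100261029) are type I genes on the minus strand. Krt5 (chr15:101707070-101712898), Krt6a (chr15:101689910-101694307), Krt6b (chr15:101676023-101680287) and Krt8 (chr15:101996698-102004482) are type II genes on the minus strand. Krt18 (chr15:102028180-102032027) is the type I gene that lies in the type II cluster, on the plus strand next to its partner Krt8. Several of these genes are close copies, which limits how reads can be assigned. The Krt6a and Krt6b transcripts were identical at 90.5% of aligned bases, and 49.5% of the 50-base words of Krt6a and 50.1% of those of Krt6b occurred in another gene. The share was 37.6% for Krt16, 26.9% for Krt8, 14.4% for Krt14, 8.52% for Krt5 and 3.99% for Krt17. The levels of Krt6a, Krt6b, Krt16 and Krt8 are therefore uncertain to the extent that the counting split shared reads. One case shows in the table: Gm11597, which holds 25.2% of the Krt16 words, is listed at 86.9 FPKM in unstimulated KO2, at 140 FPKM in unstimulated HET2 and at 0 in the other 8 libraries.

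The upstream sequences shown are those of Krt8, the member whose level spread most between libraries, of its partner Krt18, and of Krt5 for comparison, with a motif of NF-kB marked because BCL10 signalling leads to that factor. They are the 250 bases before the RefSeq start site (GRCm38.p6), 5′ to 3′ on the gene's strand, at chr15:101712906-101713155 (minus strand) for Krt5, chr15:102004343-102004592 (minus strand) for Krt8 and chr15:102027966-102028215 (plus strand) for Krt18. Capitals mark matches on either strand to GGGNNNNNCC, a loose form of the NF-kB site in which overlapping matches run together.
Krt5: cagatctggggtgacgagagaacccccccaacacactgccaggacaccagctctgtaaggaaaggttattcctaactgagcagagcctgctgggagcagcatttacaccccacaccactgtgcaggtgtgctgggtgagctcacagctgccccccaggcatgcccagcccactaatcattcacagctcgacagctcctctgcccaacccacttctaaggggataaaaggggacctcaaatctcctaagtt
Krt8: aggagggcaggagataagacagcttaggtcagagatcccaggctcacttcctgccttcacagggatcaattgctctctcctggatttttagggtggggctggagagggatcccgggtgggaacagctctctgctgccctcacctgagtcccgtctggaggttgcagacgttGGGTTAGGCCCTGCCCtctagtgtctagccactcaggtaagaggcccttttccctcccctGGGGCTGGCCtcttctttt
Krt18: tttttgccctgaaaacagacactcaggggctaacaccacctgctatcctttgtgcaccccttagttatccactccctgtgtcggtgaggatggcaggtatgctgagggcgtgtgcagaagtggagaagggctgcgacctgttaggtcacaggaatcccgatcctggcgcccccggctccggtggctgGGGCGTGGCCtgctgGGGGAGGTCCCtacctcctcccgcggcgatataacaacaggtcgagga
For Krt8 the last 140 bases shown, which hold all of its matches, lie inside the GENCODE gene model given above, as do the last 36 bases for Krt18, outside its matches. The motif had 0 matches in the Krt5 window, 4 in that of Krt8 and 3 in that of Krt18, and 45.8% of all 32851 windows of this length in the RefSeq table held at least 1. Overlapping matches were counted separately, so these counts exceed the marked stretches. The fixed letters of the motif are all G or C. The windows of Krt5, Krt8 and Krt18 were 56%, 58% and 60.4% GC, against a median of 52.4% over all windows. TGANTCA, the AP-1 form, had 0 matches in the 3 windows against 6.75% of all windows, and GCCNNNGGC, the AP-2 form, had 1 match in the Krt18 window against 13.7% of all windows. TATAAA (12.4% of all windows) and GGGCGG, an Sp1 form (32.7%), had 0 matches in the 3 windows. These are matches of letters, and no binding was measured.

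The basal and wound-induced keratins were among the most abundant genes of these cells, apart from Krt15. Over the 10 libraries Krt5 ranged from 4430 to 6426 FPKM (median 5673) and Krt14 from 3723 to 5015 (median 4599). Krt17 ranged from 3783 to 4776 FPKM (median 4050) and Krt6a from 3456 to 3773 (median 3574). By mean FPKM, these 4 genes were ranked 1 (Krt5), 2 (Krt14), 3 (Krt17) and 4 (Krt6a) of the whole table. Krt6b, the minor copy of Krt6a, followed at 821 to 917 FPKM, and Krt16 at 451 to 701. The simple-epithelial pair was far lower, with Krt18 at 24.4 to 36.1 FPKM and Krt8 at 7.03 to 22.8. Krt15 was listed at 0 in 7 libraries and at 0.115 to 0.180 FPKM in the other 3 (both KO1 libraries and unstimulated KO2). These levels are low, but the Krt15 transcript has 1700 bases, so they stand for more fragments than in 1 kb. The 9 genes together made up 4.52 to 5.82% of all FPKM. The order Krt5, Krt14, Krt17, Krt6a, Krt6b, Krt16, Krt18, Krt8, Krt15 held in 8 of 10 libraries. In the HET2 libraries Krt17 stood above Krt14, and in the IL-17A library of HET2 also above Krt5. The ranges of Krt5, Krt14 and Krt17 overlapped, while each gene further down the order, from Krt6a on, did not overlap with the one above it.

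**Figure D1:**
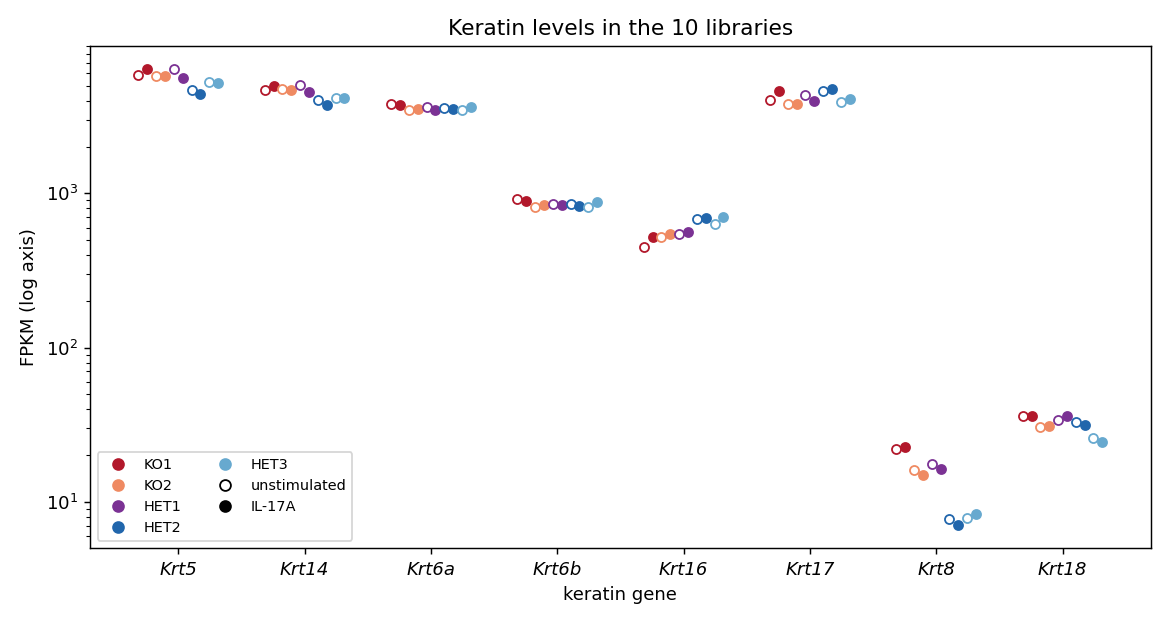
FPKM on a log axis for the 8 keratins with a mean of at least 1 FPKM, 1 point per library (color, culture; open, unstimulated; filled, IL-17A). Krt5 to Krt17 lie between 451 and 6426 FPKM, and Krt8 is the gene whose cultures are farthest apart (7.03 to 22.8 FPKM); Krt15, at or near 0, is not drawn.

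The first question was whether IL-17A changed these keratins within 5 hours. None of the 8 tested keratins passed an adjusted p of 0.05 in limma (log2(FPKM + 1), Benjamini-Hochberg over 12054 genes) in the heterozygous cultures, where 0.0083% of all genes passed. The same held in the knockout cultures (0 of 8, against 0.0249% of all genes) and in the average over the 5 cultures with culture as a block (0 of 8, against 0.149%). At an unadjusted p under 0.05 the keratin count was also 0 of 8 in each, against 1.34%, 1.46% and 6.03% of all genes. In the averaged fit, the lowest and highest limits of the 8 intervals (95%) were -0.16 and 0.19 on the log2 scale. Within a genotype the intervals were wider, up to -1.04 to 0.99 for Krt8 in the knockout cultures. The fits within a genotype had no term for culture, so differences between cultures entered their error. Krt8 differed by 0.055 in KO1 and -0.11 in KO2. With culture as a fixed block, 0 of 8 keratins had an unadjusted p under 0.05 in either genotype. Of 12054 genes, 835 did in the heterozygous and 607 in the knockout cultures. In the averaged fit, the median change of the 8 keratins was -0.0040, beside -0.0077 for all genes tested.

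Among the wound-induced keratins, Krt16, the partner of Krt6, came nearest to a change. Krt16 went from 451 to 522 FPKM in KO1, from 522 to 546 in KO2, from 548 to 565 in HET1, from 684 to 688 in HET2 and from 636 to 701 in HET3. It was higher with IL-17A in 5 of 5 cultures, but the treated and untreated libraries overlapped in both genotypes. In KO2 and HET2 its copy Gm11597 was listed at 86.9 and 140 FPKM in the unstimulated library and at 0 in the IL-17A one. The sign of the Krt16 difference in these 2 cultures is therefore uncertain. In HET1, where Gm11597 was at 0 in both libraries, the Krt16 log2 difference was 0.044, beside 0.065 in KO2. The mean Krt16 log2 difference was 0.093 (95% interval -0.00060 to 0.19), with an adjusted p = 0.824 in limma. Krt17, which is known as an IL-17-responsive keratin in psoriasis, went from 4025 to 4637 FPKM in KO1, from 3795 to 3783 in KO2, from 4360 to 3954 in HET1, from 4579 to 4776 in HET2 and from 3899 to 4075 in HET3. It was higher in 3 of 5 cultures and lower in the other 2 (log2 difference 0.037, 95% interval -0.086 to 0.16, limma). The largest rises of Krt16 and Krt17 were in KO1, whose unstimulated library stands apart. Krt6a and Krt6b were the steadiest members. Krt6a spanned a factor of 1.09 over all 10 libraries, and its averaged log2 difference was 0.0020 (95% interval -0.073 to 0.077). For Krt6b the factor was 1.12 and the log2 difference 0.013 (95% interval -0.068 to 0.095).

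In the basal pair, Krt5 differed in sign between the 2 genotypes. It went from 5842 to 6369 FPKM in KO1 and from 5743 to 5753 in KO2, and from 6426 to 5604 in HET1, from 4700 to 4430 in HET2 and from 5288 to 5203 in HET3. Krt5 was thus higher with IL-17A in both knockout cultures and lower in all 3 heterozygous ones, and the difference between the genotypes' responses was 0.17 on the log2 scale (SE 0.22, limma adjusted p = 1.00). The Krt5 log2 difference in KO2 was only 0.0026, so that culture was almost level. In KO1 it was 0.12, taken against the unstimulated KO1 library that stands apart from the others. The largest Krt5 fall (-0.20) was in HET1, whose Bcl10 level goes against its label. Krt14 was lower in HET1 and HET2 (log2 differences -0.14 and -0.12), almost level in HET3 (0.0051) and of mixed sign in the knockout cultures. The averaged log2 differences were -0.036 for Krt5 and -0.037 for Krt14. In the simple-epithelial pair, Krt8 was lower with IL-17A in 3 of 5 cultures (averaged log2 difference -0.040, 95% interval -0.16 to 0.075) and Krt18 was lower in 3 of 5 (-0.010, 95% interval -0.10 to 0.083). HET2 was the only culture in which both were lower. For the test of a different response between genotypes, 0 of 8 keratins passed (0% of all genes did), and 0 of 8 had an unadjusted p under 0.05, against 1.19% of all genes (limma). That fit had no term for culture. With culture as a fixed block, 0 of 8 keratins and 624 of 12054 genes had an unadjusted p under 0.05.

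**Figure D2:**
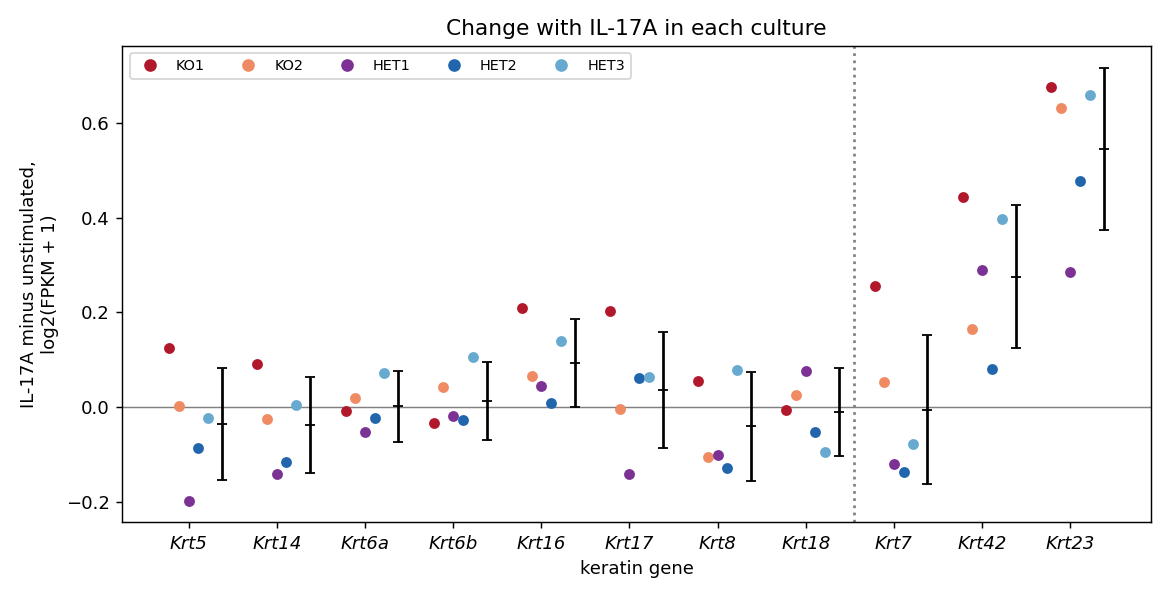
Difference between the IL-17A and the unstimulated library of each culture, log2(FPKM + 1), for the 8 tested keratins and, right of the dotted line, Krt7, Krt42 and Krt23; black bars are the limma mean over 5 cultures with its 95% interval. The 8 intervals all include 0, that of Krt16 only just, while Krt23 and Krt42 are above 0 in 5 of 5 cultures.

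The second question was whether loss of Bcl10 changed them. None of the 8 tested keratins passed an adjusted p of 0.05 in limma, unstimulated (0% of all genes passed) or with IL-17A (0.0249% of all genes passed). At an unadjusted p under 0.05 the count was 1 of 8 unstimulated, Krt16, against 4.66% of all genes, and 0 of 8 with IL-17A, against 8.14%. The median difference of the 8 keratins was 0.071 unstimulated and 0.086 with IL-17A, beside -0.015 and -0.0094 for all genes. The knockout and heterozygous libraries did not overlap for 1 of 8 keratins unstimulated, against 27.7% of all genes, and for 3 of 8 with IL-17A, against 28.5%.

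Krt16 was lower in the knockout libraries in both conditions. Unstimulated, it was 487 ± 50.1 FPKM (SD, n = 2) in the knockout and 623 ± 69.2 (SD, n = 3) in the heterozygous cultures, and the groups did not overlap. The log2 difference was -0.35 (SE 0.14, limma adjusted p = 0.728). With IL-17A the levels were 534 ± 17.4 and 651 ± 75.2 FPKM, again without overlap, and the log2 difference was -0.28 (SE 0.14, limma adjusted p = 0.507). HET1, with 548 and 565 FPKM, sat nearer to the knockout libraries than to HET2 and HET3. Unstimulated, the gap between the genotypes lay between KO2 (522 FPKM) and HET1 (548 FPKM). The Krt16 copy Gm11597 was listed at 86.9 FPKM in that KO2 library and at 140 FPKM in unstimulated HET2. The lack of overlap unstimulated is therefore uncertain.

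Krt8 had the highest knockout mean relative to the heterozygous one. Unstimulated it was 21.9 FPKM in KO1 and 16.0 in KO2, and 17.5 in HET1, 7.78 in HET2 and 7.89 in HET3. With IL-17A it was 22.8 FPKM in KO1 and 14.8 in KO2, and 16.2 in HET1, 7.03 in HET2 and 8.39 in HET3. HET1 lay among the knockout libraries in both conditions, so the groups overlapped. The log2 differences were 0.81 (SE 0.41, limma adjusted p = 0.728) and 0.83 (SE 0.41, limma adjusted p = 0.507). Krt18, its partner, had log2 differences of only 0.11 and 0.14 (SE 0.18 each). Krt5 was 5792 ± 69.9 FPKM in unstimulated knockout and 5471 ± 877 in unstimulated heterozygous libraries, and 6061 ± 435 and 5079 ± 597 with IL-17A, where the groups did not overlap (log2 difference 0.26, SE 0.16, limma adjusted p = 0.507). Krt14 likewise did not overlap with IL-17A, at 4822 ± 239 against 4135 ± 411 FPKM (log2 difference 0.23, SE 0.13, limma adjusted p = 0.507). Krt6a, Krt6b and Krt17 had log2 differences between -0.13 and 0.047 in both conditions.

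These genotype differences depended on how HET1 and the library numbers were handled. Without both HET1 libraries, the Krt8 difference with IL-17A was 1.16 on the log2 scale (SE 0.22) and passed (limma adjusted p = 0.0377). In that fit 1 of 8 keratins passed with IL-17A, against 802 of 12061 genes. The unstimulated Krt8 difference was also 1.16 (limma adjusted p = 0.0654), where 0 of 8 keratins and 117 of 12061 genes passed. Krt16 was then at -0.44 unstimulated and -0.38 with IL-17A, with limma adjusted p = 0.10 and 0.0649. Without HET1 all heterozygous libraries have numbers 33 to 38 and all knockout libraries numbers 1 to 14. Genotype and number set are then the same division and cannot be told apart. With the library number set (33 to 38 against 1 to 14) as a covariate, which leaves HET1 as the only heterozygous culture beside the knockouts, Krt8 was at 0.12 and 0.15 and Krt16 at -0.16 and -0.091, and none passed (limma adjusted p = 1.00 for each). For Krt5, Krt14 and Krt18 the sign of the unstimulated difference turned under this covariate, to -0.10, -0.062 and -0.078. HET1 has Bcl10 at the knockout level, so the covariate fit cannot test loss of Bcl10 either. A fit with estimated library weights called 2 of 8 keratins unstimulated (Krt8 and Krt16), against 2929 of 12054 genes. With IL-17A it called 4 of 8 (Krt8, Krt14, Krt16 and Krt18), against 3551 of 12054 genes. It gave the HET3 libraries weights of 11.8 and 33.4 and every other library at most 1.14.

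**Figure D3:**
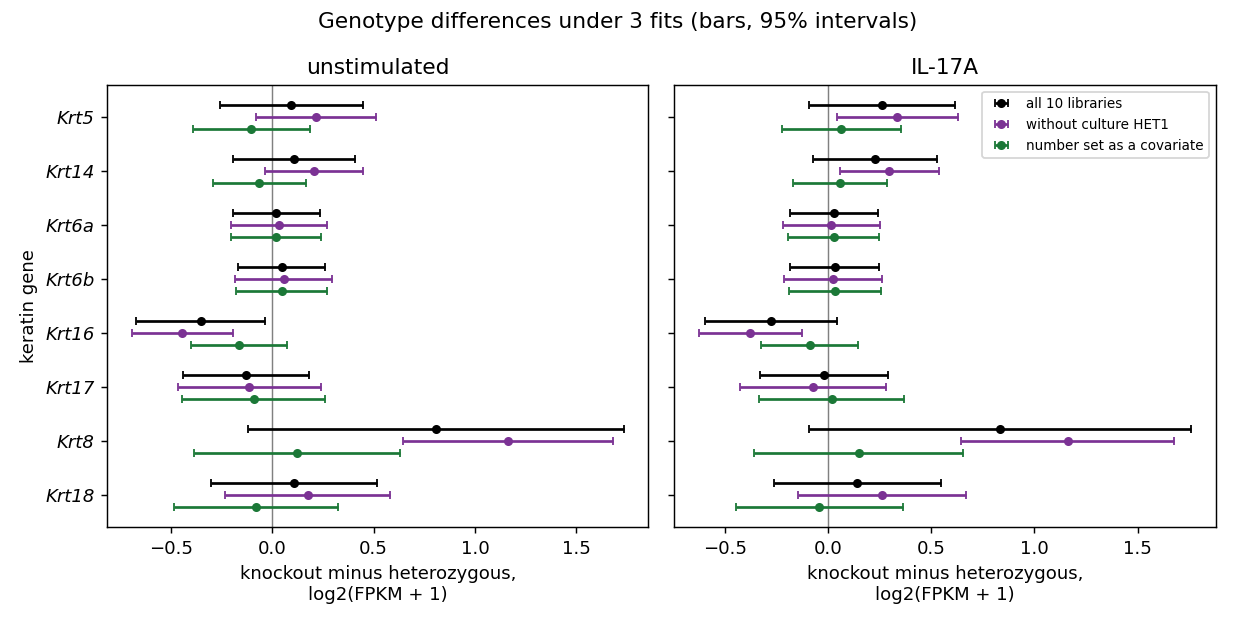
Knockout minus heterozygous difference, log2(FPKM + 1), with 95% limma intervals for the 8 tested keratins under 3 fits (black, all 10 libraries; purple, without culture HET1; green, library number set as a covariate). Krt8 moves from 0.81 to 1.16 without HET1 and to 0.12 with the covariate in the unstimulated panel, while Krt6a and Krt6b stay near 0 in all 3. Without HET1, genotype and number set are the same division.

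More keratins passed between the library number sets, which are no treatment. In limma, 4 of 8 keratins passed between libraries 33 to 38 (HET2 and HET3) and 1 to 14 (KO1, KO2 and HET1), a share near the 48.1% of all genes that passed. At an unadjusted p under 0.05 it was 5 of 8, against 55.3%, and the 2 sets did not overlap for 4 of 8, against 35.9% of all genes. The median over the 8 was -0.13, beside 0.022 for all genes. Of all genes 3061 passed as higher and 2733 as lower, against 2114 and 3448 under TPM scaling. The fit between the sets had no term for culture, so both libraries of a culture counted as independent. Its SEs and p-values may therefore be too small. With culture as a random block, 4 of 8 keratins and 4407 of 12054 genes passed. Number set, Bcl10 level and, in part, genotype cannot be told apart here. The melanocyte marker sums given above also differ by set. Of the 7 keratinocyte markers, which include Krt5 and Krt14, 6 fell between the sets (median log2 difference -0.43), with Itgb4 at -0.82, Col17a1 at -0.81, Cdh3 at -0.70 and Itga6 at -0.43. Trp63 did not pass (-0.10), and Epcam, an epithelial adhesion gene, rose (1.02). The part of these markers in the keratin results was not tested.

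Krt8 fell most, from a median of 16.9 FPKM (range 14.8 to 22.8) in libraries 1 to 14 to 7.84 (7.03 to 8.39) in libraries 33 to 38, with no overlap (log2 difference -1.12, SE 0.12, limma adjusted p = 0.000282). The markers of Merkel cells, which also express Krt8 and Krt18, summed to 0.301 to 0.624 FPKM over the libraries, with Chga at 0 and Krt20 at most at 0.321. Krt16 rose from a median of 534 FPKM (451 to 565) to 686 (636 to 701), with no overlap (log2 difference 0.37, SE 0.061, limma adjusted p = 0.00155). Its copy Gm11597 was listed only in unstimulated KO2 (86.9 FPKM) and unstimulated HET2 (140 FPKM), so the Krt16 levels there are uncertain. The basal pair fell together. Krt5 went from a median of 5797 FPKM (5604 to 6426) to 4951 (4430 to 5288), a log2 difference of -0.28 (SE 0.070, limma adjusted p = 0.00877). Krt14 went from 4709 FPKM (4545 to 5015) to 4080 (3723 to 4139), a log2 difference of -0.25 (SE 0.053, limma adjusted p = 0.00421). Neither basal gene overlapped between the sets. Krt18 did not pass (-0.24, limma adjusted p = 0.0603), although it did with median-of-ratios scaling (-0.25, limma adjusted p = 0.0483) and with TPM scaling (-0.33, limma adjusted p = 0.0118). The test was also not passed by Krt17 (0.081, adjusted p = 0.435), Krt6b (-0.026) and Krt6a (-0.016). With genotype as a covariate Krt8, Krt14 and Krt16 still passed (log2 differences -1.03, -0.25 and 0.28), while Krt5 did not (-0.29, limma adjusted p = 0.0544).

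**Figure D4:**
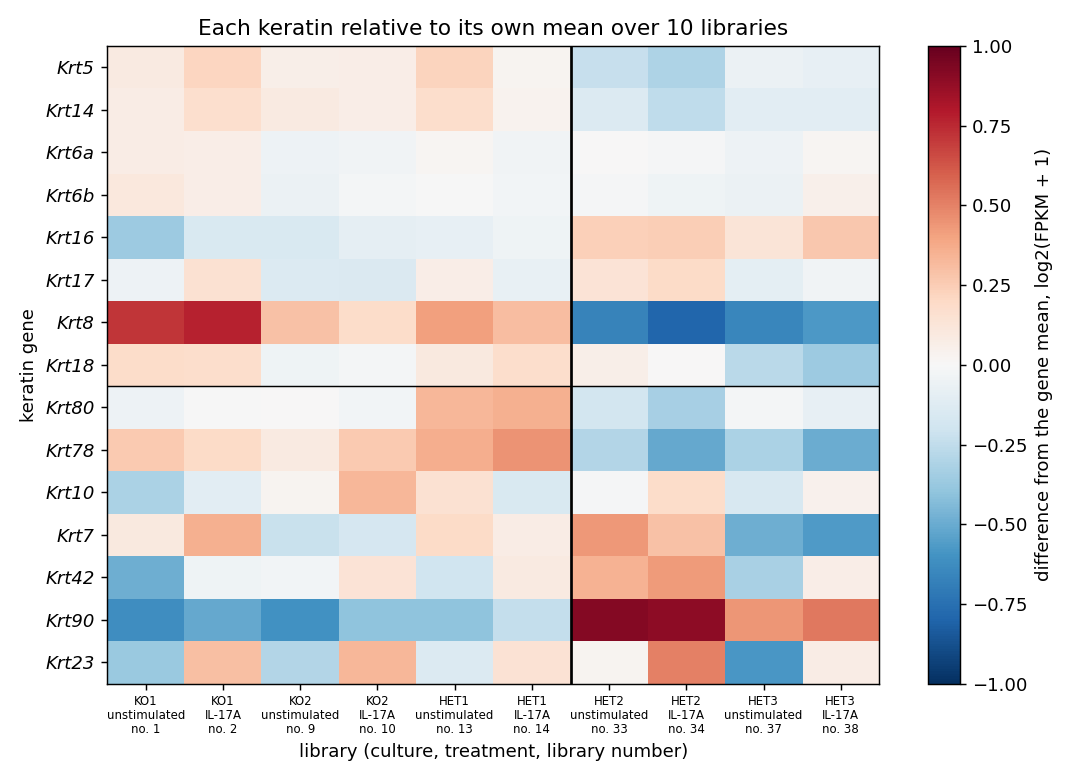
Each keratin (rows) as its difference from its own mean over the 10 libraries (columns, by library number), log2(FPKM + 1), red above and blue below the mean; the vertical line separates libraries 1 to 14 from 33 to 38. Krt8, Krt5, Krt14 and Krt78 are lower right of the line, Krt16 and Krt90 are higher there, and Krt6a and Krt6b are near 0 in every library.

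Partner chains keep each other stable as protein, so the ratios between partners were compared at the RNA level. Krt5/Krt14 was nearly constant, between 1.16 and 1.28 in every library. Krt6a and Krt6b are both type II and so not partners. Their ratio was between 4.11 and 4.26, but it depends on how their shared reads were split. The summed type II members stood at 0.956 to 1.15 times the summed type I members, so the 2 types were close to equal in every library. The ratio of Krt6a plus Krt6b to Krt16 plus Krt17 was 0.801 to 1.05. Krt8/Krt18 was the exception to this narrow spread, and Krt18 was in excess in every library. The ratio was 0.608 and 0.636 in KO1, 0.524 and 0.476 in KO2, 0.516 and 0.454 in HET1, 0.237 and 0.222 in HET2 and 0.302 and 0.344 in HET3 (unstimulated, then IL-17A). For IL-17A, a two-sided exact sign-flip test over 5 cultures gave p between 0.312 and 0.875 for the ratios and the summed share, where 0.062 is the smallest possible. Between genotypes, a two-sided exact permutation test on culture means gave p between 0.200 and 0.900, where 0.10 is the smallest possible, so neither test could reach 0.05. Adjusted over these 12 tests the values lay between 0.686 and 0.900. The Krt8/Krt18 ratio had a log2 difference of 0.76 between knockout and heterozygous culture means, and p = 0.200 in the exact permutation test.

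**Figure D5:**
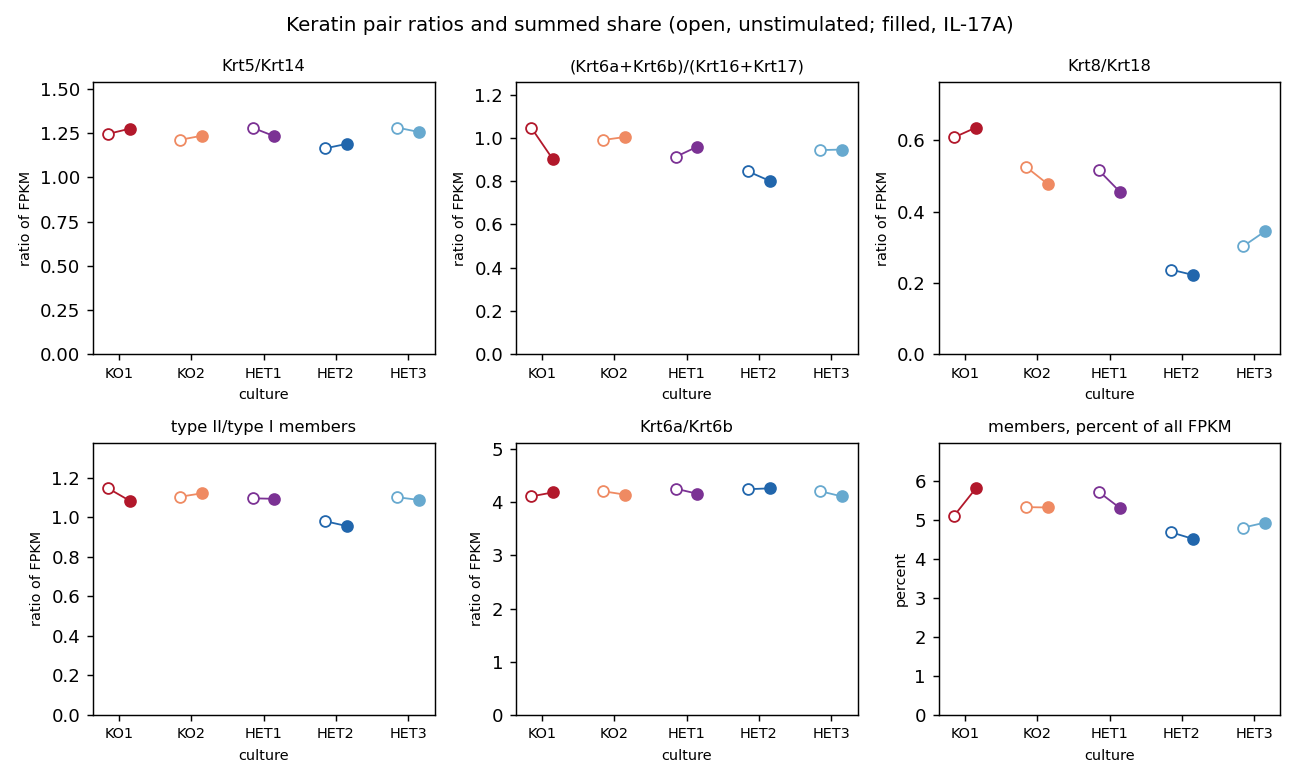
Ratios of FPKM between keratins and the 9 genes' share of all FPKM, by culture. Open points are unstimulated, filled points are IL-17A, and axes start at 0. Krt6a and Krt6b are both type II and share much of their sequence. Krt5/Krt14 and Krt6a/Krt6b are nearly level across cultures, and Krt8/Krt18 is at 0.222 to 0.344 in HET2 and HET3 against 0.454 to 0.636 in KO1, KO2 and HET1.

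Outside the 9 genes, the highest keratins were Krt80, Krt42 and Krt7, with means of 24.9, 15.1 and 14.3 FPKM, each above the mean of Krt8 (14.0). The table held 54 keratin genes, of which 27 were at 0 in every library and 15 had a mean of at least 1 FPKM. Krt1 and Krt10, the suprabasal pair that replaces Krt5 and Krt14 when keratinocytes leave the basal layer, had means of 0.871 and 1.21 FPKM. Of the 11 suprabasal and stratified-epithelium keratins 3 were tested, and 0 passed for IL-17A or genotype in limma (0 of 3 at an unadjusted p under 0.05). Between the number sets Krt78 fell (log2 difference -0.67, SE 0.088, limma adjusted p = 0.000589). Of 9 other soft epithelial keratins 4 were tested. In limma 0 of 4 passed for IL-17A or genotype, with 0 to 2 of 4 at an unadjusted p under 0.05, and between the sets Krt90 rose (1.16, SE 0.11, limma adjusted p = 0.000173). Of the 15 hair shaft keratins 13 were listed at 0 in every library, Krt87 reached 0.0344 FPKM, and Krt85 was not analysed here. Of the companion layer and inner root sheath list, Krt75 and Krt79 were the highest, with means of 0.977 and 0.910 FPKM.

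Krt23 and Krt42, named here after their values were seen, were higher with IL-17A in 5 of 5 cultures, unlike most of the 9 genes. Krt23, a type I keratin, went from 2.08 to 3.92 FPKM in KO1, from 2.25 to 4.03 in KO2, from 2.62 to 3.42 in HET1, from 3.07 to 4.67 in HET2 and from 1.67 to 3.21 in HET3. Treated and untreated libraries did not overlap within either genotype. Its averaged log2 difference was 0.55 (SE 0.072, 95% interval 0.37 to 0.72), with a limma adjusted p = 0.0731 that missed the threshold. Krt42, also a type I keratin, had an averaged log2 difference of 0.28 (SE 0.063, limma adjusted p = 0.398).

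Of 8 listed linkers, which attach or order keratin filaments, 7 were tested. In limma 0 of 7 passed for IL-17A in either genotype or averaged, and 0 of 7 for genotype, where 1 of 7 had an unadjusted p under 0.05 with IL-17A. Between the sets 6 of 7 fell and 1 did not pass, with a median log2 difference of -0.55, where 48.1% of all genes passed in either direction and the median of all genes was 0.022. Those that fell were Dsp (desmoplakin, which ties keratin to desmosomes, -0.69), Ppl (periplakin, -0.71), Evpl (envoplakin, -0.55), Pkp1 (plakophilin 1, -0.55), Plec (plectin, which ties keratin to hemidesmosomes, -0.42) and Fam83h (which recruits a kinase to keratin filaments, -0.40). Dsp was 268 to 278 FPKM in libraries 1 to 14 and 146 to 190 in libraries 33 to 38. Of 19 regulators of keratin gene transcription, 0 passed for IL-17A or genotype in limma, with 0 to 1 of 19 at an unadjusted p under 0.05. Between the sets 7 fell, 2 rose and 10 did not pass, a share near the 48.1% of all genes. Those that fell were Klf5 (-0.51), Jun (-0.43), Gli2 (-0.41), Tfap2a (which encodes AP-2 alpha, -0.40), Stat3 (-0.29), Egfr (-0.29) and Fosl2 (-0.29), and those that rose were Junb (0.37) and Grhl3 (0.33).

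Within the group, the 2 basal keratins rose and fell together over the 10 libraries, with a Pearson r of 0.97 between Krt5 and Krt14. Krt6a and Krt6b, whose reads are hard to tell apart, had r = 0.94. Krt8 was closer to Krt14 (r = 0.93) than to its partner Krt18 (r = 0.67), and was opposite to Krt16 (r = -0.94). Outside the keratins, the genes most like the mean of the basal pair were Zfp574, Scap, Tyro3, Ncln and Lama5 (r between 0.988 and 0.993). For the wound-induced group they were Svbp, Ccs, Tbl3, Dohh and Trappc6a (0.889 to 0.919). For the simple-epithelial pair they were Sprr2a2, Sprr2a1, Dio3, Slc27a6 and Pwp2 (0.950 to 0.968), of which the 2 Sprr2a genes are close copies of each other. These correlations describe 10 libraries in 5 cultures that share the number sets, and carry no test.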

How the data were processed

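Gene-level FPKM values of 10 poly(A) RNA libraries, made from 100 ng of RNA with the NEBNext Ultra II kit per the labels' protocols, were used as the authors deposited them. Per the submitters' processing notes, HISAT2, SAMtools, StringTie and DESeq2 were used with the build mm10; the sources used here give no roles, versions or strand setting. Of 37991 identifiers, 32919 matched a symbol in GENCODE vM21 (GRCm38). Depth was estimated from steps between low FPKM values; 48.2 to 54.1% of these were whole steps within 0.05, too few to recover counts. Precision was therefore taken from the spread between libraries.

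FPKM values were tested as log2(FPKM + 1) in limma 3.58.1 (R 4.3.3, trended variance) over the 12054 genes averaging 1 FPKM or more, with Benjamini-Hochberg adjustment and a threshold of 0.05. Fold changes are on that scale, which understates those of low genes. IL-17A, genotype and their interaction came from 1 fit of all 4 groups, and the averaged IL-17A difference from a fit with culture as a block. Same-numbered libraries of a genotype deviated together from their group means (r from 0.137 to 0.607), and their numbers were taken as pairs. Across genotypes r lay between -0.155 and 0.0476, so there they were not. This check cannot settle the pairing. KO1 and KO2 share 1 value (0.227) by construction, and the heterozygous cultures also divide by number set. Differently numbered libraries of a genotype were not compared. Ratios were tested with exact sign-flip and permutation tests (scipy 1.17.1). Alternatives varied the pseudocount (0.1), the filter (none, or 5 FPKM), the scaling, the variance trend, library weights, blocks, covariates and the libraries included.

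Named are all 9 keratins and, from each related list, the genes passing any comparison or else the 2 most abundant. For each role, 5 genes most correlated with it are named. The members, the 6 related lists and the markers were chosen with earlier results of these data known. Promoter windows came from RefSeq (GRCm38.p6), where 4 of 9 members matched; that of Krt14 starts 1518 bases inside the GENCODE gene model and is not shown.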

Additional observations from a re-analysis of the deposited data

Results flagged for a closer look

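Opposite directions in the 2 genotypes brought up 2 keratins. Krt5 was higher with IL-17A in both knockout cultures (mean log2 difference 0.064) and lower in all 3 heterozygous ones (-0.10); the difference between the responses was 0.17 (SE 0.22, limma adjusted p = 1.00). Krt7, a simple-epithelial keratin outside the 9, had the same pattern (0.15 and -0.11), with a difference of 0.26 (SE 0.46, limma adjusted p = 1.00). The Krt5 rise in KO2 was only 0.0026 on the log2 scale. The rises in KO1, 0.12 for Krt5 and 0.26 for Krt7, were taken against the unstimulated KO1 library, which stands apart. Both patterns count HET1 as heterozygous, although its Bcl10 level goes against its label. Groups of 2 and 3 libraries are too small for a check of single outlying libraries.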

How the results depend on the processing

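Of 1232 recomputed log2 differences of single keratins, 1199 kept their side of the threshold and stayed within 1 SE of the reported value, or passed in both fits. 17 moved by more, 13 newly passed, 3 no longer passed and 0 turned while passing; 117 changed sign, all of differences that passed in neither fit. The keratin count of 0 for the IL-17A difference in the knockout, its average and the genotypes' difference in response was 0 in every alternative run, including each library left out and the fits with a replicate block. Library weights gave 2 of 8 keratins for IL-17A in the heterozygous cultures (Krt6b and Krt16), against 4656 of 12054 genes. For genotype they gave 2 of 8 unstimulated, against 2929 of 12054 genes, and 4 of 8 with IL-17A, against 3551. Leaving out HET1 gave 1 of 8 for genotype with IL-17A, against 802 of 12061 genes. Between the number sets 4 of 8 keratins passed, against 5794 of 12054 genes. With no filter 2 of 9 passed (Krt5 and Krt14 lost), against 5691 of 20917 genes. With a library left out it was 4 to 5 of 8. With median-of-ratios scaling 5 of 8 passed, against 5775 of 12043 genes, and with TPM scaling 5 of 8, against 5562 of 13656. The fifth was Krt18, and the cause was not tested. 

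Counts of all genes that passed moved as follows. For IL-17A in the heterozygous cultures (1 gene) the count was 2 with a pseudocount of 0.1 or TPM scaling, 5 with the number set, 4656 with library weights, 0 without HET1, without KO1 or with only those groups, and 0 to 2 with a library left out. With the replicate block, pairing each culture's libraries, it was 0 (fixed) or 15 (random). For IL-17A in the knockout (3) it was 5 without a filter, 1 under TPM scaling, 11 with weights, 0 to 12 with a library left out, and 0 or 14 with the block. For the averaged difference (18) it was 6 without a filter, 31 with weights, 7 with no replicate block, 8 without HET1 and 0 to 11 with a library left out. For genotype unstimulated (0) it was 2 without a filter or with the number set, 1 with only those groups, 2929 with weights, 117 without HET1, 17 without KO1 and 0 to 4 with a library left out. For genotype with IL-17A (3) it was 6 without a filter, 0 under TPM scaling, 1 with only those groups, 3551 with weights, 802 without HET1, 19 without KO1 and 0 to 10 with a library left out. For the difference in response (0) it was 1 without a filter or HET1, 4 without KO1, 17 with weights, 5 with the random block and 0 to 6 with a library left out. For the number sets (5794) it was 3305 with genotype as a covariate and 4407 with culture as a random block. The cause of these moves was not tested, apart from the fewer libraries in some. The unstimulated genotype interval of Krt8 ran from -0.12 to 1.73 with all libraries and from 0.65 to 1.68 without HET1. Without HET1, genotype and number set are the same division.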
